A study of Mus musculus with 16 samples.

Results

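The regions described here are promoter sites at which a BMAL1 peak was called in the liver of male misaligned mice at ZT12 and in no other library. They were taken from the authors' table of 7043 merged intervals: an interval counted when the male misaligned ZT12 library was the only one of the 8 BMAL1 libraries with a call in it and its annotation was promoter-TSS. This gave 1083 of the 7043 intervals, and each held 1 peak of that library. The sites were thus chosen by the authors' peak calls in all 8 libraries, so their number, and their absence from other libraries, describe the choice and were not tested.

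BMAL1 was mapped by chromatin immunoprecipitation and sequencing in 8 libraries, 1 for each combination of sex, control or misaligned schedule, and ZT0 or ZT12 (hours after lights-on), beside 8 IgG libraries that were not used here. All mice were C57bl6, aged 8 to 16 weeks, housed under light and dark of equal length, and moved from chow to a high-fat diet when the control or misalignment schedule began. The schedule of misalignment is not given in the sources used here. Each library came from whole liver pooled from several mice, so there was no replicate of any group, and no difference between libraries could be set against the spread between animals or pools.

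BMAL1 binds DNA as a pair with CLOCK and drives transcription of the clock repressors of the Per and Cry families, which then block the pair. In liver this cycle also reaches genes of lipid, cholesterol and glucose metabolism. The pair recognises the E-box, the sequence CACGTG, and binds it in open promoters and enhancers, where other factors bind as well. In bulk liver, a site occupied in fewer cells cannot be told apart from one occupied less often in each cell.

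The sequences below, from the RefSeq promoter windows of GRCm38.p6, show what BMAL1's own element looked like at the strongest of these sites. They are the 6 sites with the highest -log10 q among those whose summit lay inside the window of the gene (250 bases before to 50 after the RefSeq start) and whose window held an E-box. Each is written 5′ to 3′ in the direction of the gene, with the E-box in capitals. They lie at Sde2 (chr1:180850973-180851078, plus strand), 1810008I18Rik (chr7:65802995-65803086, plus), Dvl2 (chr11:70000509-70000614, plus), Fam214a (chr9:74952820-74952925, plus), Hsph1 (chr5:149636287-149636384, minus) and Arsa (chr15:89477385-89477490, minus).
Sde2: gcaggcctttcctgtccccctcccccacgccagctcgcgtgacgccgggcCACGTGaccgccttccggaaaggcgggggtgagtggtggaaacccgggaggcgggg
1810008I18Rik: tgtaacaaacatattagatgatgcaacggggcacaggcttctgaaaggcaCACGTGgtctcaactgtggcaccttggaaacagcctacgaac
Dvl2: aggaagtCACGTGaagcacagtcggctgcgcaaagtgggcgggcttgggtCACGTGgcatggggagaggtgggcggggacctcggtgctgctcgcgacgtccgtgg
Fam214a: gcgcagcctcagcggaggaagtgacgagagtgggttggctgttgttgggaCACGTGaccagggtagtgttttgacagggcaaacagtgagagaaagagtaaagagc
Hsph1: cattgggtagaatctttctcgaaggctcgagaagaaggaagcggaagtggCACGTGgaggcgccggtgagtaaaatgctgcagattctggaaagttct
Arsa: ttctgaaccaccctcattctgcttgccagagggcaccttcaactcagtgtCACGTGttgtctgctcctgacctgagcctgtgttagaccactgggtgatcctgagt

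At these 6 genes the centre of the E-box lay 9 to 45 bp from the peak summit, the point of most fragments. It was 9 bp away at Fam214a, 15 bp at Arsa, which encodes a lysosomal sulfatase, and 16 bp at Dvl2, a relay protein of Wnt signalling. At Hsph1, a chaperone of the HSP110 class, it was 21 bp away, at Sde2 37 bp and at the noncoding gene 1810008I18Rik 45 bp. The Dvl2 window held 3 E-boxes, of which the stretch above shows 2.

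Strong sites without the E-box are shown for contrast: the strongest site of all, at Engase (chr11:118476781-118476880, plus strand), and the next with its summit in the window, at Mtch2 (chr2:90847105-90847204, plus). The capitals at Engase mark AACGTG, the reverse complement of CACGTT. This is the E′-box, a variant to which BMAL1 and CLOCK are also known to bind. It was looked for after this sequence had been seen.
Engase: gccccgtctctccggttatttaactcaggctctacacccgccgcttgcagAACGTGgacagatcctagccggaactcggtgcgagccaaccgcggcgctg
Mtch2: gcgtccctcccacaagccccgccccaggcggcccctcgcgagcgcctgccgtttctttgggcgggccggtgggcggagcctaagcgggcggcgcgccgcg

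The Engase window, 300 bases long, held 2 E′-boxes and no E-box, and the one shown lies beside the summit, which was at -1 bp from the RefSeq start (negative values are upstream). The Mtch2 stretch, from the promoter of a mitochondrial outer membrane protein, held neither element.

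Male misaligned ZT12 had the longest peak list and the most promoter sites of its own, but the promoter share of those intervals lay within the range of the other libraries. It held 5542 peaks, against 141 to 1864 in the other 7 libraries. Of its intervals, 4106 were called in it alone, and the 1083 promoter sites made up 26.4% of these (exact Clopper-Pearson 95% interval 25.03 to 27.8, which covers counting error only, as do all intervals below). Promoters were 33.6% of all merged intervals. The other intervals of this library alone were 1537 in introns, 1140 intergenic, 189 in exons and 157 at gene ends. In the other 7 libraries, the promoter sites called in 1 library alone numbered 3 to 250, with the most in male misaligned ZT0, and their share of such intervals ran from 15.2% in male control ZT12 to 44.9% in female misaligned ZT0. The share in male misaligned ZT12 lay inside that range, below the 44.9% (39.98 to 49.997) of female misaligned ZT0 and the 31.0% (27.8 to 34.3) of male misaligned ZT0. Where this library shared an interval with others, 52.9% were promoters (50.3 to 55.5, 759 of 1434). When its list was shortened to its 1864 strongest peaks, the length of the next longest list, that of male misaligned ZT0, 272 promoter sites were left. They were 31.7% of the intervals called in it alone (28.6 to 35.0). Against that shortened list, male misaligned ZT0 had 328 promoter sites of its own, 33.0% of its own intervals (30.05 to 36.0).

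**Figure D1:**
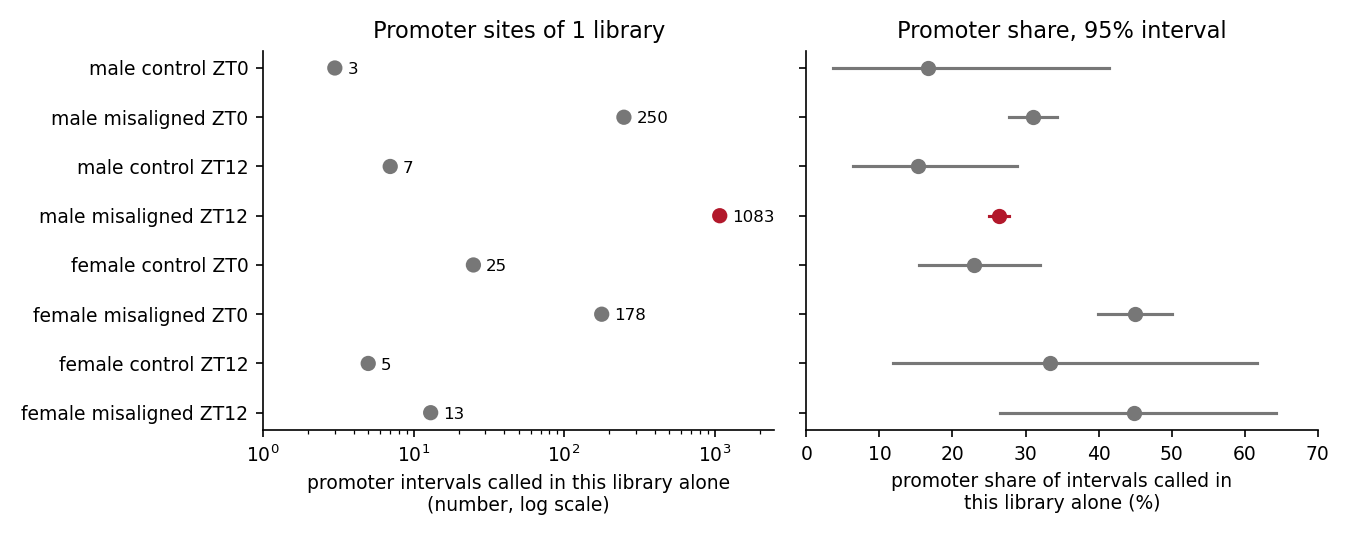
Left, the number of promoter intervals called in each BMAL1 library alone (log scale). Right, the promoter share of all intervals called in that library alone, in percent, with exact 95% intervals for counting error. Male misaligned ZT12 (red) had 1083 such promoter sites against 3 to 250 in the others, at a share of 26.4% that lies within the range of the other libraries, 15.2% to 44.9%.

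Read depth is not given in the sources used here. Local background at its lowest, a value that grows with depth and with fragment length, stood at 4.25 fragments in male misaligned ZT12 and 4.32 to 6.16 in the other 7 libraries. It was thus lowest in the library with the most peaks. Its part in the number of sites was not tested. None of the 1083 sites stood on high background, taken as at least 5 times the lowest: their local background was 1.00 to 4.00 times the lowest, with a median of 1.67 times.

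The sites were weaker than the shared promoter intervals of this library and close in strength to the intervals called in it alone outside promoters. Among its 5542 peaks they were of middle strength, with a median rank of 3019 (quartiles 1862 and 4169). Peak strength is given as the authors' -log10 q, fold enrichment over local background and the fragments at the summit that these imply. Across the 1083 sites the median -log10 q was 5.04 (95% interval 4.70 to 5.28; lowest 1.33, highest 58.7). The median fold enrichment was 3.54 (lowest 2.02, highest 12.4). The median was 27 fragments at the summit (lowest 14, highest 81) over a median background of 7.09. The 759 promoter intervals shared with other libraries had a median -log10 q of 14.4, a fold enrichment of 4.75 and 46 fragments. The peak of this library itself was also wider there, with a median of 519 bp (495 to 539) against 385 bp (376 to 395). The merged intervals had a median of 592 bp, but a shared interval joins peaks of several libraries and is wider by construction. Among the 1000 strongest peaks of the library were 75 of the promoter sites called in it alone (6.93%) and 370 of the shared promoter intervals (48.7%). The intervals of this library alone outside promoters had a lower median -log10 q, 4.07 in introns, 4.27 between genes, 4.16 in exons and 3.97 at gene ends. By the other measures they were not weaker throughout. Their median fold enrichment was 3.43 in introns and 3.57 between genes, the latter just above the 3.54 of the sites. Their share among the 1000 strongest peaks was 6.96% in introns, 8.07% between genes, 7.94% in exons and 7.01% at gene ends, each slightly above the 6.93% of the sites. Of the sites, 239 (22.1%) had a -log10 q below 3.

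**Figure D2:**
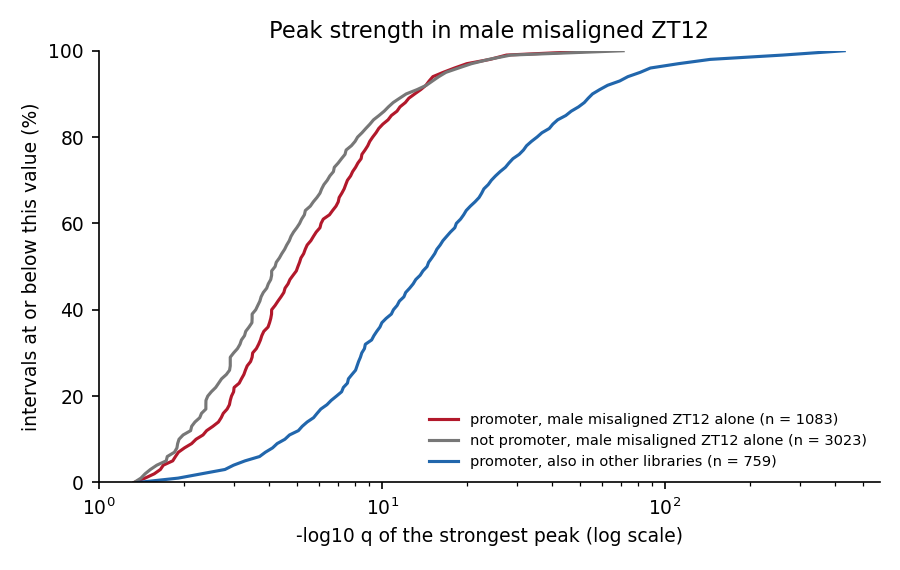
Cumulative share (percent) of intervals by -log10 q in male misaligned ZT12 (log scale), for promoter sites called in this library alone (red), its other intervals called alone (grey) and promoter intervals also called elsewhere (blue). The red curve reaches its median at 5.04 and runs close to the grey one, while the blue curve has its median at 14.4.

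Strength rose with the number of libraries that shared a promoter interval. The median -log10 q in male misaligned ZT12 was 5.04 for a call in this library alone, 9.07 with 1 other library (374 intervals), 14.9 with 2 others (177) and 28.2 with 3 others (90). It was 146.0 for the 22 promoter intervals called in all 8 libraries. The second library of the 374 pairs was female misaligned ZT0 in 183 (48.9%) and male misaligned ZT0 in 161 (43.0%), the 2 next longest lists. It was male control ZT12, of the same sex and time, in 3. The sites lay largely apart from other calls: a peak of another library stood within 1 kb of 32 sites (2.95%) and within 10 kb of 105 (9.70%). Another peak of male misaligned ZT12 itself stood within 10 kb of 195 (18.01%).

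The strongest site lay at Engase, a cytosolic enzyme that cuts glycans from proteins. On chromosome 11 from 118476502 to 118477156, it had a -log10 q of 58.7, a fold enrichment of 12.4 and 81 fragments. Even so, it ranked 122 in its list. Next were Ccdc88c (chromosome 12, 101028774 to 101029378), which encodes a Dishevelled-binding protein, at 51.3, and a site nearest the noncoding gene Gm26766 at 40.8. Sde2, a factor of splicing and genome maintenance, had 36.5, 1810008I18Rik 33.0 and Rnf13, a ubiquitin ligase, 32.2. Slc17a9, the vesicular nucleotide transporter, had 30.5 at a promoter placed at -11202 bp from the deposited start site. The last of the 10 strongest were a start shared by Zswim7 and Ttc19 (30.3), the pseudogene Gm17136 (29.0) and Acat2 (29.0), the thiolase that makes acetoacetyl-CoA for cholesterol synthesis.

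At the threshold of the list stood Prr3, Synpo and Commd3, each with a -log10 q of 1.33, a fold enrichment of 2.39 and 20 fragments. The only RefSeq start within 1 kb of the Prr3 summit was that of Gnl1, and the Commd3 start is shared with Gm33355. RefSeq starts were not at hand for the chromosome of Synpo. The other edge of the choice is the call in a second library. The strongest promoter intervals just outside, called in 1 further library, were at Txndc16 (101.8), Sumo2 (65.1), Ttc7 (61.4), Gpd1l (58.8) and Pou2f1 (52.9). Sumo2 encodes a ubiquitin-like modifier and Pou2f1 the factor OCT1. The first 4 of these exceeded Engase.

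The widest sites were not the strongest. They were a start shared by Spata5 and Nudt6 (1562 bp, -log10 q 14.4), Acot2, a mitochondrial acyl-CoA thioesterase (1438 bp, 5.72), Gfod1 (1337 bp, 14.2), the mitochondrial carrier Slc25a39 (1262 bp, 13.6) and Ntan1 (1225 bp, 4.03). The whole set ran from 272 to 1562 bp.

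Summits clustered just upstream of transcription starts, as they did at the shared promoter intervals. Both sets were chosen by the promoter-TSS annotation, which itself places an interval at a start. This position, and its likeness between the sets, are thus in part set by the choice and were not tested. RefSeq start sites were at hand for the chromosomes of 1063 sites, and in 827 (77.8%) the summit lay within 1 kb of one. Among these 827 the median position was -88 bp (quartiles -232.5 and 26.5 bp), and 69.0% of summits were upstream (65.8 to 72.2). At shared promoters the median was -65 bp and 68.8% were upstream. A summit within 100 bp of a start was found at 30.0% of the 1063 sites (27.3 to 32.9) and at 35.4% of the shared promoters (31.9 to 39.0). Starts of more than 1 gene lay within 1 kb of the summit at 175 of the 827 sites (21.2%, 18.4 to 24.1). The value was 21.9% at shared promoters. At such sites the gene cannot be told from position alone. Of all RefSeq starts, 15.5% have a start of another gene within 1 kb. This last share is counted from each start and not from a summit, so it is not a like measure.

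**Figure D3:**
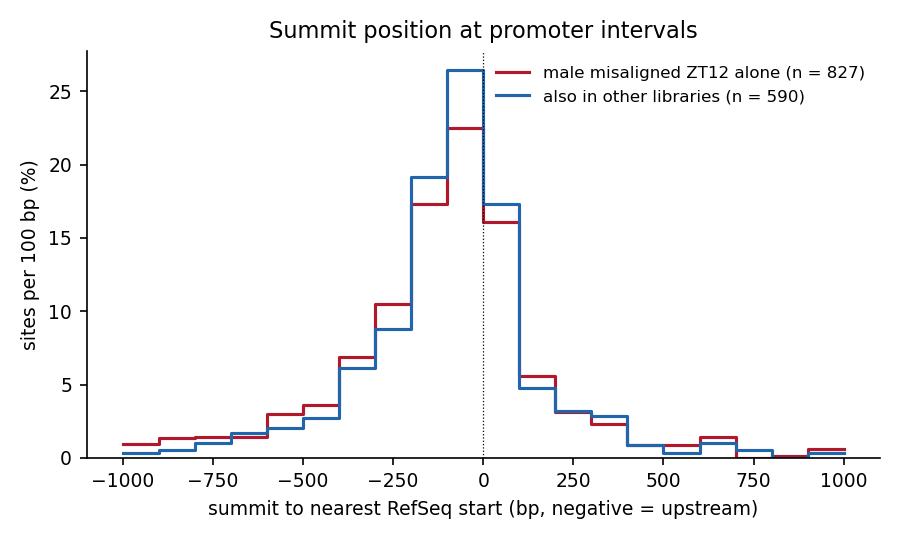
Distance from the peak summit to the nearest RefSeq start (bp, negative upstream) for promoter sites of male misaligned ZT12 alone (red, 827 sites) and promoter intervals shared with other libraries (blue, 590), as percent of sites per 100 bp. Both sets peak in the 100 bp upstream of the start, with medians of -88 and -65 bp. Both were chosen as promoter-TSS, which in part sets this position.

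The sites fell on all autosomes and on the X chromosome. Per 100 protein-coding genes there were 2.07 sites on the X (20 sites), 6.92 on chromosome 16 (47 sites) and 5.97 on chromosome 11 (96 sites, the most on any chromosome). There was no site on the Y. The gene nearest by the authors was protein-coding at 866 sites, a lincRNA at 45, an antisense gene at 45 and a miRNA at 28. At 278 sites the promoter annotation named another gene than the nearest one. The gene of the annotation is used here where its name could be found, at 857 of the 1083 sites. The name came from a RefSeq start within 1 kb at 195 sites and from the nearest gene at 31. At those sites it can differ from the annotated gene.

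E-boxes were more frequent in the windows of these sites than in promoters in general, and less frequent than at shared intervals. CACGTG, which reads the same on both strands, was in 18.4% of the 827 windows (152; 15.8 to 21.2). It was in 7.15% of all 32851 RefSeq windows and in 7.84% of the windows of protein-coding genes. It was in 31.4% of shared promoter windows (27.6 to 35.3). A window covers only part of a site, so a window without the element says nothing of the rest of the site. Base composition moved with this result: 80.3% of the sites' windows were CpG-rich (an observed to expected CpG ratio of at least 0.6), against 47.7% of protein-coding and 88.1% of shared promoter windows. Within CpG-rich windows the E-box share was 20.03% at the sites (17.05 to 23.3) and 11.4% over protein-coding genes (10.8 to 12.0). In the other windows it was 11.7% (7.17 to 17.6) against 4.59% (4.21 to 5.00).

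The E-box share followed peak strength and the position of the summit. From the weakest to the strongest quartile of the sites by -log10 q, it was 13.5% (9.09 to 19.03), 13.7%, 21.0% and 24.9% (19.2 to 31.2). The interval of the weakest quartile lay above the 7.84% of all protein-coding windows and spanned the 11.4% of CpG-rich ones. For intervals called with 1, 2 or 3 other libraries the shares were 26.8%, 31.7% and 31.0%, and for those called in 5 to 8 libraries 46.1% (35.4 to 57.0). Where the summit lay inside the window, 26.2% of the sites held an E-box (22.2 to 30.4, 122 of 466). Where it lay outside, 8.31% did (5.68 to 11.7, 30 of 361), beside 7.84% of all and 11.4% of CpG-rich protein-coding windows. In the 122 windows with both, the median distance from the nearest E-box to the summit was 33.5 bp (24 to 49), and 63.1% were within 50 bp (53.9 to 71.7). At shared promoters the median was 22 bp (18 to 28) and 80.0% were within 50 bp (72.6 to 86.2). At least 2 E-boxes stood in 21 of the 827 windows, among them that of Dvl2.

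**Figure D4:**
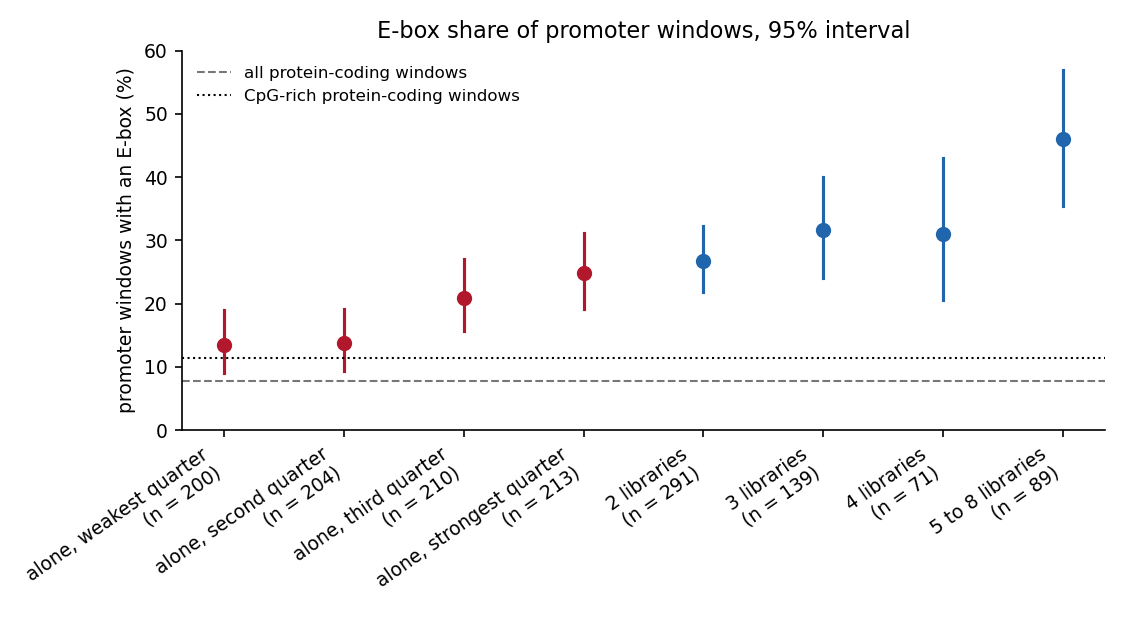
Percent of promoter windows with an E-box, with exact 95% intervals, for quartiles of the sites of male misaligned ZT12 alone by -log10 q (red) and for promoter intervals also called in other libraries, by the number of libraries (blue). The share goes from 13.5% in the weakest quartile to 24.9% in the strongest and 46.1% at intervals called in 5 to 8 libraries; the lines mark all (7.84%) and CpG-rich (11.4%) protein-coding windows.

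The E′-box CACGTT was in 8.71% of the sites' windows (6.87 to 10.8) and in 9.49% of shared promoter windows. In the strongest quartile of the sites it was in 15.5% (10.9 to 21.1), and in the other quartiles in 5.24% to 7.35%. Within CpG-rich windows it was in 8.73% at the sites (6.70 to 11.1) against 5.81% over protein-coding genes (5.36 to 6.28), and either element was in 27.3% (23.9 to 30.8) against 16.5%.

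The other elements are likewise compared within CpG-rich windows, first at the sites and then over protein-coding genes. GGGCGG, bound by SP1, was in 80.3% (77.04 to 83.2) against 74.1%, and CCGGAAG, bound by ETS factors, in 23.3% (20.2 to 26.8) against 19.7%, both intervals above the general level. CCAAT, bound by NFY, was in 40.5% (36.8 to 44.4) against 36.5%, also just above. GCGCATGCG, bound by NRF1, was in 5.72% (4.08 to 7.77) against 4.51%. The intervals also spanned the general level for AAGATGGCG, bound by YY1 (3.16% against 3.52%), the cAMP response element TGACGTCA (4.37% against 3.72%) and TATAAA (5.42% against 5.58%). The D-box TTANGTAA, bound by the clock-controlled factors DBP, TEF and HLF, was in 1.66% (0.830 to 2.94) against 1.18%. The wider E-box form CACGNG, which includes CACGTG, was in 59.3% (55.5 to 63.1) against 48.1%. The E-box was thus not alone in standing above the general level.

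By gene, a site was found at 939 of 21900 protein-coding genes (4.29%), and a promoter interval shared with another library at 653 (2.98%). Both were found at 18 genes. An interval shared with another library cannot be a site, so this overlap is in part set by the choice and was not tested. The counts below are for 33 gene lists that were chosen with results of these data known, and they are to be read beside 4.29%. No list was tested against that share. It is taken over all protein-coding genes, active in liver or not, and expression was not used here. A list share above it is thus not shown to be particular to the function of the list. With only the 1864 strongest peaks kept, 44 list genes had a site, and each of the 26 lists with any site fell by over 1.5 times. In all, 170 of the 3959 genes in the lists had a site, and 769 of the 939 genes lay outside them.

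Among clock genes, shared promoter intervals were more common than these sites. Of 22 core clock genes, 3 had a site (Per1, Rora and Hlf), while 11 had a shared promoter interval. Counted by RefSeq starts within 1 kb of the summit, the list had 1 gene with a site, as no such start lay at the Rora and Hlf sites. Per1, the light- and clock-induced repressor, had a site on chromosome 11 from 69099966 to 69100284, at -54 bp from its RefSeq start (-log10 q 9.52, fold enrichment 4.21, 36 fragments). Upstream in the same gene stood an interval called in all 8 libraries (69094535 to 69095474, -log10 q 336 in this library) and one called in 6 (69098459 to 69099102, 87.9). The site nearest the Per1 start was thus the weakest of the 3 promoter intervals there. Hlf, a PAR-bZIP factor, had 2 sites, on chromosome 11 from 90388220 to 90388494 (3.43) and from 90389331 to 90389739 (5.24). Before them lay an Hlf promoter interval called in 3 libraries (90382166 to 90382740, 16.6). After them came a promoter interval called in 5 libraries (90390631 to 90391186, 31.3) and an intergenic one called in all 8 (90417768 to 90418532, 254). Rora, an activating nuclear receptor of the clock, had a site on chromosome 9 from 69289444 to 69289942 (6.57), where the nearest gene by the authors is the antisense gene Gm15511. None of the 12 clock output genes had a site, which allows a share of up to about 25%. Of these genes, 9 had a shared promoter interval. An interval shared with another library cannot be a site, so few sites at such genes follow in part from the choice.

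Of 24 fatty acid oxidation genes, 5 had a site (20.8%). Acadm, the medium-chain acyl-CoA dehydrogenase, had a -log10 q of 11.3, a fold enrichment of 4.77 and 36 fragments, at -139 bp from its start. Etfa (8.23) and Etfdh (5.43) pass electrons from that enzyme class to the respiratory chain, Crat (6.40) is carnitine acetyltransferase, and Fgf21 (4.70) is a fasting hormone of the liver. The Fgf21 window was the only one of the 4 with a window that held an E-box. The Etfdh start is shared with 4930579G24Rik.

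Cholesterol and fat synthesis genes also held sites. Of 24 genes of cholesterol synthesis and uptake, 4 had one (16.7%): Acat2 (29.0), the desaturase Sc5d (14.2), Dhcr7, which catalyses the last step to cholesterol (5.07), and Pmvk of the mevalonate pathway (3.49). The count was 2 when promoters were taken as a deposited distance within 1 kb. As many genes of this list, 4, had a shared promoter interval. Of 22 genes of fatty acid and triglyceride synthesis, 3 had a site (13.6%). They were the elongases Elovl6 (15.3, at a start shared with Gm35986) and Elovl5 (5.19), and Srebf1, the regulator of lipogenesis (7.88). The nearest gene by the authors at the Srebf1 site is Tom1l2. Windows of Sc5d and Elovl5 held an E-box. Glucose metabolism and insulin signalling had sites at 2 of 22 genes, G6pc, the last enzyme of glucose release (5.18, at -148 bp), and the kinase Akt2 (3.47), and shared intervals at 6. The list for bile acids and xenobiotics had 1 of 20 genes, Cyp7a1, which controls the first step from cholesterol to bile acids, with 17 fragments and a -log10 q of 2.64. It was not counted at a -log10 q of at least 3, nor by RefSeq starts within 1 kb.

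Genes of hepatocyte identity and of inflammation were present with few members each. Of 16 hepatocyte transcription factors 2 had a site, Foxa2 (15.5) and Hnf4a (3.76). None was counted with a deposited distance within 1 kb, and 1 with a protein-coding nearest gene. Of 24 secreted and urea cycle genes 3 had one, the apolipoproteins Apoe (13.2) and Apoc3 (3.49) and the urea cycle enzyme Ass1 (2.93). Of 24 inflammation and acute phase genes 4 had one (16.7%): the acute phase protein Orm2 (10.3), the chemokine Cxcl1 (8.39), the interleukin receptor Il6ra (8.24) and Jun (1.67), whose start is shared with Junos. The stress list had 3 of 24 genes (12.5%), Atf4 (7.28), Hmox1 (3.59) and Gpx1 (2.89). No site lay at any marker of Kupffer and myeloid, endothelial, stellate, cholangiocyte or lymphocyte cells (0 of 9 to 12 genes each). A count of 0 in lists of this size allows a share of up to about 25% to 33.3%. This limit was taken as 3 divided by the number of genes. These lists thus could not be set apart from the 4.29%. Of 1110 olfactory receptor genes, which are silent in liver, none had a site, which allows up to about 0.270% by the same rule.

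Among the lists of 25 to 460 genes, the shares lay between 3.48% and 8.92%, nearer the background than the highest shares above. The splicing list had 14 of 157 genes (8.92%). Its highest values were at Prpf3 (10.1), the helicase gene Dhx29 (9.74, at a start shared with Mtrex) and Rbm38 (9.17). The splicing factor Srsf1 had 7.40. Membership of this list does not show that a gene, such as Dhx29, acts in splicing. The cytosolic ribosome had 6 of 80, led by Rps21 (7.84), and its shared promoter intervals covered 2. Translation factors and tRNA synthetases had 7 of 105 (6.67%), with Eif4g1, the scaffold of the cap-binding complex, at 24.9 and Eif4b at 12.8. Chaperones and heat shock genes had 7 of 96 (7.29%), led by Hsph1 (24.99, 58 fragments) and Dnajb4 (14.6, at a start shared with Fubp1). The ER chaperone Hsp90b1 had 7.84. Beside 18.4% of all sites' windows, those with an E-box numbered 4 of 13 in splicing, 4 of 6 in translation factors, 2 of 6 in the cytosolic ribosome and 1 of 6 in chaperones. They were 2 of 13 in vesicle traffic and 1 of 13 in zinc finger genes, and none in respiratory chain subunits, the mitochondrial ribosome, chromatin modifiers or the proteasome, with 2 to 4 windows each.

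Vesicle traffic had 17 of 257 genes (6.61%), led by the endosomal GTPase Rab5a (14.4), and autophagy and lysosome 5 of 79 (6.33%), led by Tfeb, the regulator of lysosomal genes (17.1, 56 fragments). Ubiquitin enzymes had 19 of 327 (5.81%), led by Rnf13 (32.2), Fbxo3 (18.2) and the scaffold Cul5 (16.2), and 12 at a -log10 q of at least 3. The only RefSeq start within 1 kb of the Fbxo3 summit was that of 4931422A03Rik, and the Cul5 start is shared with Gm16124. Solute carriers had 20 of 375 (5.33%), led by Slc17a9 (30.5), and included the mitochondrial citrate carrier Slc25a1 (13.0). Mitochondrial import had 2 of 25, both near 4.3 in -log10 q (Timm13, and Timm8b at a start shared with the nearest gene by the authors, Sdhd). Mitochondrial ribosome genes had 4 of 78, led by Mrpl48 (14.8, at a start shared with Rab6a). Respiratory chain subunits had 4 of 88 (4.55%), and their highest value was 5.35 (Atp5j, at a start shared with Gabpa), with 2 genes at a -log10 q of at least 3. Counted by every RefSeq gene with a start within 1 kb, this list and the mitochondrial ribosome had 6 genes each. Cell cycle and DNA repair had 7 of 144 (4.86%), led by Rad51c (9.10), a start shared with Tex14, and 4 genes with a deposited distance within 1 kb.

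The lists below the background of 4.29% that had any site were chromatin modifiers (5 of 121, 4.13%), transcription machinery (5 of 127, 3.94%), the proteasome (2 of 51, 3.92%) and zinc finger and ZBTB genes (16 of 460, 3.48%). They differed from it by little. Chromatin modifiers had 2 genes with a deposited distance within 1 kb, and the proteasome had 1 at a -log10 q of at least 3 or with no peak of another library within 1 kb. Kdm5c, an H3K4 demethylase gene on the X, led the first (10.5), and Gtf2h1, a TFIIH subunit, the second (16.6, at a start shared with Hps5). Zfp872 led the zinc finger genes (25.7) and Psmb6 the proteasome (3.65).

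**Figure D5:**
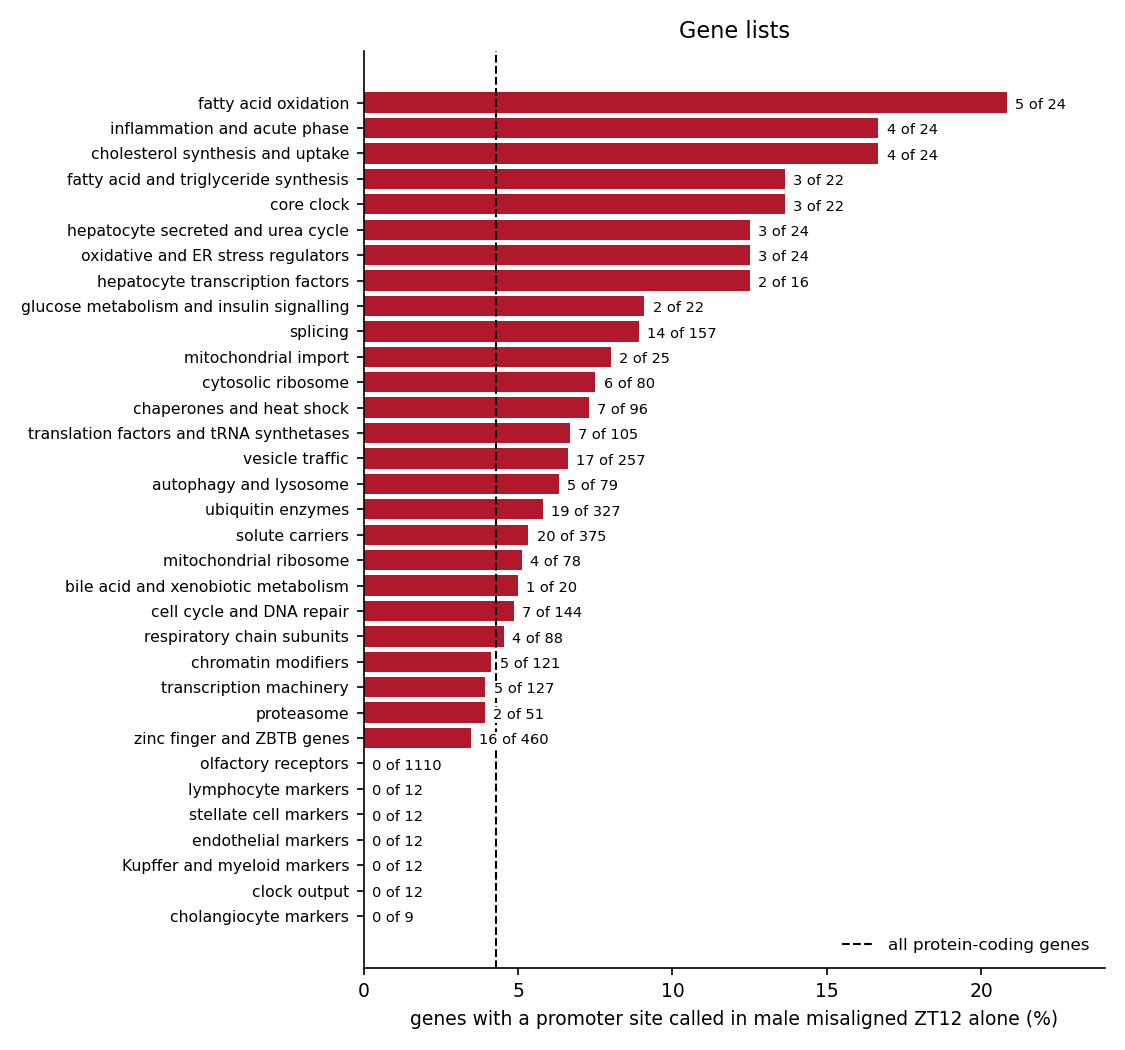
Percent of the genes in each of the 33 lists with a promoter site of male misaligned ZT12 alone; the number of genes stands at each bar and the dashed line marks all protein-coding genes (4.29%). The 5 lists with the highest shares have 22 to 24 genes, of which 3 to 5 had a site, while the lists of 25 to 460 genes lie between 3.48% and 8.92%.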

How the data were processed

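BMAL1 peaks of mouse liver were analysed in 8 libraries, 1 a group, with groups taken from the labels. The tools listed in the submitters' processing notes are the aligner BWA (0.7.17-r1188), the build GRCm38 and the peak caller MACS2 (2.2.7.1). The peak threshold, depth and use of IgG are not given in the sources used here. The deposited peak lists hold, from the authors' peak caller, fold enrichment as a ratio, -log10 p and -log10 q, a score, and summit offsets. The authors' merged table gives each interval a call per library, a count of libraries and peaks, an annotation, and the distance to the start site of the nearest gene. Its 48 other columns of per-sample values were not used.

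Fragments at each summit and local background were recovered as the whole number and rate that give the deposited fold enrichment and -log10 p (relative tolerance 0.0001), which succeeded for all 1083 sites. A site's gene was that of its promoter annotation where this could be named through the table, at 857 sites. A RefSeq start within 1 kb gave the name at 195, which can be another gene than the annotated one. The 31 named by nearest gene entered no list. Position was taken to the nearest RefSeq start in place of the authors' start site, since the deposited distance exceeded 1 kb at 298 sites. Motifs were searched on both strands in RefSeq windows of 300 bases (GRCm38.p6), as no genome was used. Every CACGTG is also a match of CACGNG. In all, 11 motifs were searched.

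The sites and the gene lists were chosen with earlier results of these data known. Genes named are the 10 strongest, the 3 weakest, the 5 widest, up to 5 by -log10 q in each list, and the 5 strongest promoter intervals called in 1 further library. Sequences printed were limited to sites with the summit in the window, a limit set after seeing the data, as were the CpG classes, the quartiles and the grouping by number of libraries. No test between libraries was made, since the calls in them chose the sites. Intervals are exact at 95%. Python 3.11.15, pandas 2.3.3, NumPy 2.4.6, SciPy 1.17.1 and Matplotlib 3.10.9 were used, and scripts were tested on simulated data.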

Additional observations from a re-analysis of the deposited data

How the results depend on the processing

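The 6 results that were recomputed were the number of sites, their promoter share, median -log10 q, share of summits within 100 bp of a start, E-box share, and list genes with a site. With only the 1864 strongest peaks kept, these were 272 sites, 31.7%, 11.7, 38.3%, 24.8% and 44 genes. At -log10 q of at least 3 the promoter share was 28.6% and the median 6.23, which rises by the filter itself. The promoter share was 23.2% with promoters taken as a deposited distance within 1 kb, and 32.2% with a protein-coding nearest gene. The E-box share was 26.2% with the summit in the window. Added after seeing the data were the deposited distance in place of RefSeq starts (23.0% within 100 bp), the E′-box alone (8.71%) or with the E-box (25.8%), peaks of high background left out, peak widths of this library alone, sites of male misaligned ZT0 counted against the shortened list, and every RefSeq gene with a start within 1 kb. The other 36 values stayed within their counting interval or within 1.5 times. Of 297 list counts 259 stayed within 1.5 times, and 26 of the others came from the shortened list. Part of the stability of both sets of values was fixed in advance. No site was lost by keeping chromosomes 1 to 19, X and Y or by leaving out high background. Each site held 1 peak, so a mean over its peaks changed nothing, and the 7 lists with no site could not fall. No paired analysis was possible because no result here comes from a test between libraries: the calls chose the sites. With 1 library a group, none could be left out of a group. Read depth is unknown, and a site not called in another library is not shown to be unbound there.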
